A study of Mus musculus with 6 samples.

Results

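The genes described here are Cdkn1b, the gene of the cell cycle inhibitor p27Kip1, and its relatives among the cyclin-dependent kinase inhibitors. They were chosen by symbol from a list of 5, Cdkn1a, Cdkn1b, Cdkn1c, Cdkn2c and Cdkn2d, and for each of them the probe set with the greatest mean signal across the 6 arrays was read. Of the 5 listed, 4 have a probe set of their own among the 19938 genes tested. The only probe set listed for Cdkn1a is annotated to that gene and to 4930567H12Rik, so no value is given for Cdkn1a. The list was drawn up with the genotype difference of these arrays known, so the differences of its members are a description and are not tested.

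Cells were sorted by EGFP from microdissected main olfactory epithelium of C57BL/6 mouse embryos at E18.5. Fezf1-/- cells (3 arrays) were set against Fezf1+/- cells (3 arrays). EGFP stands in the targeted Fezf1 allele and is driven by the Fezf1 promoter, so the Fezf1+/- cells also carry 1 targeted allele, and no wild-type array was analysed here. The labels do not say whether the 3 samples of a genotype are separate embryos, litters or pools. Values are log2 signals, a difference is the Fezf1-/- mean minus the Fezf1+/- mean on that scale, and errors are SD over 3 arrays or the SE of the difference.

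Cyclin-dependent kinases drive the cell cycle when a cyclin is bound to them, and these inhibitors stop them. The Cip/Kip proteins p21Cip1 (Cdkn1a), p27Kip1 (Cdkn1b) and p57Kip2 (Cdkn1c) bind complexes of cyclins with kinases, while the Ink4 proteins, among them p18Ink4c (Cdkn2c) and p19Ink4d (Cdkn2d), bind Cdk4 and Cdk6 and keep D-type cyclins from activating them. In neural tissue of the mouse these genes are known for taking precursors out of the cycle and for holding neurons in a postmitotic state. The amount of p27Kip1 protein is set largely by its degradation, which an array does not measure.

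Fezf1 itself checked the labels. It stood at 5.56, 5.92 and 6.28 in Fezf1-/- replicates 1, 2 and 3, against 11.25, 11.12 and 11.30 in the Fezf1+/- replicates. Fezf1-/- replicate 1 differed from the rest: its Pearson correlations with them, across genes, were 0.905 to 0.935, and those among the remaining 5 arrays were 0.975 to 0.995. All 10 measured mesenchyme and bone markers, all 10 myeloid markers and all 8 endothelial markers were highest on that array, and 13 of 14 markers of mature olfactory sensory neurons were lowest on it. The members and the gene lists are therefore given with it and without it. Defining markers of olfactory neurons were present in every array, with Omp, the olfactory marker protein gene, from 9.09 to 10.84 in Fezf1-/- cells and from 11.82 to 12.12 in Fezf1+/- cells, and Gap43, a growth cone protein gene of immature neurons, from 11.44 to 12.79 in Fezf1-/- cells and from 12.35 to 12.45 in Fezf1+/- cells.

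The sequences just upstream of 3 of the genes are shown because their signals took different courses over the arrays. Each is the 250 bases before the RefSeq start (GRCm38.p6), 5′ to 3′ on the gene's strand, with matches in capitals to CCAAT, the box bound by NF-Y, and to GGGCGG, the GC box bound by Sp1, on either strand. For Cdkn2c 2 windows are listed, of which the first was taken and the other was not examined. No sequence of Cdkn1c is shown.
Cdkn1b, chr6:134920151-134920400, plus strand: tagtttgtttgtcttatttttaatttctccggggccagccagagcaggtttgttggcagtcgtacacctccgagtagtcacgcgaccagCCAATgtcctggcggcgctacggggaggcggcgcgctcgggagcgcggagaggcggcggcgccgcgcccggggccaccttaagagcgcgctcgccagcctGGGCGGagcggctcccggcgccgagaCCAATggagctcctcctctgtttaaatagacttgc
Cdkn2c, chr4:109666757-109667006, minus strand: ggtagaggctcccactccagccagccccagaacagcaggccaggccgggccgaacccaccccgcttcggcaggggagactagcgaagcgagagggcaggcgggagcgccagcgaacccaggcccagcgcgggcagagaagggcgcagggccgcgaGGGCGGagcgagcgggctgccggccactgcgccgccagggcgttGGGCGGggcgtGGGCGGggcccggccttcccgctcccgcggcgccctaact
Cdkn2d, chr9:21291210-21291459, minus strand: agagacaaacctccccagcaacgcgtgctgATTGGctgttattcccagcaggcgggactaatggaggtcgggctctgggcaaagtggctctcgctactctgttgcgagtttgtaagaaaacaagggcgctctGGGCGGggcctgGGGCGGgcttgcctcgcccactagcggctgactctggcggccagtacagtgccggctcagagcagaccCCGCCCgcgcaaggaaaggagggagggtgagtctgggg

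The Cdkn1b window held 2 CCAAT boxes and 1 GC box, the Cdkn2c window 0 and 3, and the Cdkn2d window 1 and 3. The matches did not overlap each other. Of 32851 promoter windows of this length, 33.8% held CCAAT and 32.7% held GGGCGG. The letters TTTNNCGC, an E2F core, and GTAAACA, a FoxO core, were in none of the 3 windows and in 4.28% and 3.17% of all windows.

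Cdkn1b was the member that stood apart by genotype. Its log2 signal was 9.51, 9.89 and 9.93 in Fezf1-/- replicates 1, 2 and 3, against 8.54, 8.80 and 8.52 in Fezf1+/- replicates 1, 2 and 3. All 3 Fezf1-/- arrays lay above all 3 Fezf1+/- arrays, and the lowest Fezf1-/- value was that of replicate 1. The means were 9.78 ± 0.23 in Fezf1-/- cells and 8.62 ± 0.15 in Fezf1+/- cells (SD, n = 3 each), which gives a difference of 1.16 (SE 0.15) and a 2.23-fold higher signal. In bulk RNA, more cells that carry a transcript and more of it per cell cannot be told apart.

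Among all 19938 genes, 93 were higher in Fezf1-/- cells by a larger difference than Cdkn1b, and genes lower in Fezf1-/- cells were not counted. Its groups did not overlap, with Fezf1-/- higher, as in 9.72% of all genes. That share is given as background, and nothing is read from it, because the gene was chosen with this difference known. The difference lay between 1.08 and 1.29 with 1 array left out, and it was 1.29 (SE 0.12) without Fezf1-/- replicate 1, a 2.45-fold higher signal.

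Another probe set is also annotated to Cdkn1b alone, and it had the same order of groups. It read 7.66, 8.38 and 8.66 in the Fezf1-/- replicates, against 6.76, 7.50 and 7.21 in the Fezf1+/- replicates. The lowest Fezf1-/- value, again that of replicate 1, was above the highest Fezf1+/- value. Its means were 8.23 ± 0.52 in Fezf1-/- cells and 7.16 ± 0.37 in Fezf1+/- cells (SD, n = 3 each), a difference of 1.07 that comes from the same RNA and is no separate replicate.

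Cdkn1c, the imprinted gene of p57Kip2, did not separate the genotypes. Its log2 signal was 10.76, 9.39 and 9.06 in the Fezf1-/- replicates, against 9.45, 9.54 and 9.03 in the Fezf1+/- replicates. Fezf1-/- replicate 1 was higher than every other array, and the other Fezf1-/- arrays lay within the Fezf1+/- range. The means were 9.74 ± 0.90 in Fezf1-/- cells and 9.34 ± 0.27 in Fezf1+/- cells (SD, n = 3 each), and the difference was 0.40 (SE 0.45), and without Fezf1-/- replicate 1 the difference was -0.11 (SE 0.18).

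The Ink4 gene Cdkn2c had the same shape. Its log2 signal was 7.35, 5.85 and 5.80 in the Fezf1-/- replicates, against 5.94, 6.33 and 5.92 in the Fezf1+/- replicates. Fezf1-/- replicate 1 was the highest array, while the other Fezf1-/- arrays lay below all 3 Fezf1+/- arrays. The difference was 0.27 (SE 0.44) over all arrays and -0.24 (SE 0.14) without Fezf1-/- replicate 1, a change of sign. Groups without overlap, in either direction, were found in 36.2% of all genes in these 5 arrays, and in 19.9% with Fezf1-/- higher. Its values other than that of Fezf1-/- replicate 1 lay near the array medians of 5.82 to 5.95.

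Cdkn2d ran the opposite way on that array. Its log2 signal was 7.65, 8.75 and 8.73 in the Fezf1-/- replicates, against 8.51, 8.35 and 8.40 in the Fezf1+/- replicates. Fezf1-/- replicate 1 was the lowest array, and the other Fezf1-/- arrays were higher than all 3 Fezf1+/- arrays. The means were 8.38 ± 0.63 in Fezf1-/- cells and 8.42 ± 0.09 in Fezf1+/- cells (SD, n = 3 each), and the difference was -0.04 (SE 0.31). Without Fezf1-/- replicate 1 it was 0.32 (SE 0.10), a 1.25-fold higher signal, in a comparison in which 19.9% of all genes had both Fezf1-/- values above the Fezf1+/- values.

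**Figure D1:**
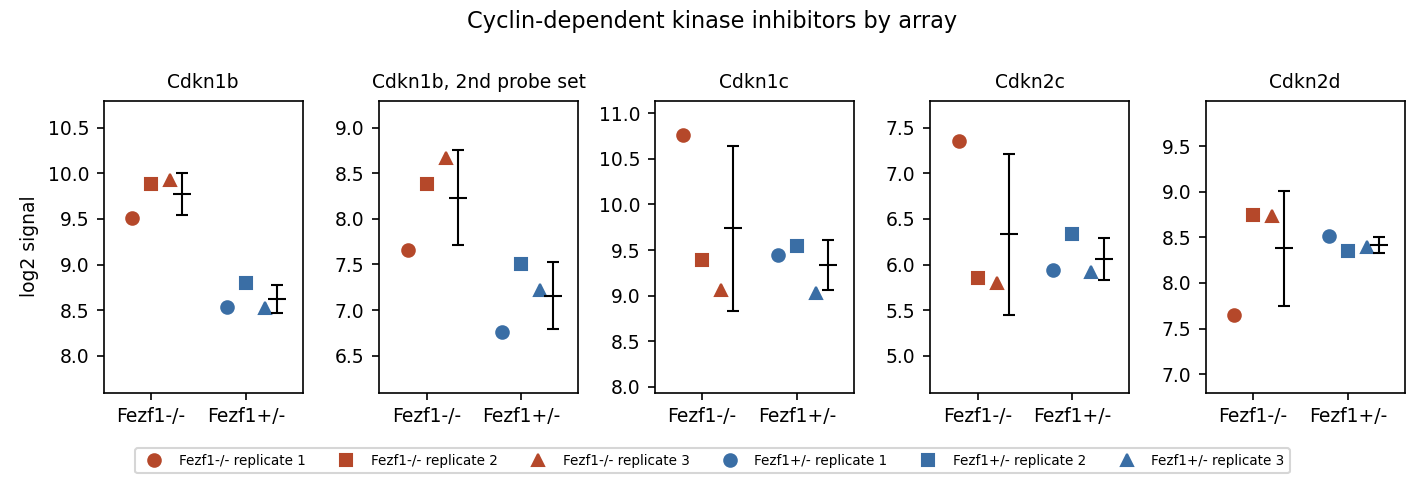
Log2 signal of each array (points) for Cdkn1b, its other probe set, Cdkn1c, Cdkn2c and Cdkn2d, with Fezf1-/- arrays left of Fezf1+/- arrays; black marks are means with SD (n = 3 each), and every panel spans the same number of log2 units. Cdkn1b is higher on every Fezf1-/- array, while in Cdkn1c, Cdkn2c and Cdkn2d it is Fezf1-/- replicate 1 that lies away from the other 5 arrays.

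The probe set shared by Cdkn1a and 4930567H12Rik, 10443463, read 9.21, 10.42 and 10.39 in the Fezf1-/- replicates, against 9.17, 9.39 and 9.51 in the Fezf1+/- replicates. Replicates 2 and 3 of the Fezf1-/- cells were higher than every Fezf1+/- array, and replicate 1 lay within the Fezf1+/- range. These values cannot be assigned to either gene.

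The members did not move as 1 group over the arrays. Across the 6 arrays Cdkn1c and Cdkn2c had a Pearson correlation of 0.96, and Cdkn2d had correlations of -0.89 with Cdkn1c and -0.96 with Cdkn2c. Cdkn1b had correlations of 0.16, 0.07 and 0.15 with Cdkn1c, Cdkn2c and Cdkn2d. In the 5 arrays without Fezf1-/- replicate 1, the correlation of Cdkn1b with Cdkn2d was 0.90, that of Cdkn1c with Cdkn2c was 0.65, and that of Cdkn2c with Cdkn2d was -0.77. These correlations describe few arrays, on each of which all the members were read together, and carry no test.

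Fezf1-/- replicate 1 carried the widest deviations of Cdkn1c, Cdkn2c and Cdkn2d. Relative to the mean of the other Fezf1-/- arrays it lay at 1.54 for Cdkn1c and 1.53 for Cdkn2c, shifts that 3.27% and 3.31% of all genes equalled or passed. For Cdkn2d it lay at -1.09, which 4.59% of genes equalled or passed, and for Cdkn1b at -0.40, which 19.1% did.

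Cell type markers moved on the same array. Mean log2 levels on Fezf1-/- replicate 1, on the other Fezf1-/- arrays and on the Fezf1+/- arrays were 9.82, 6.45 to 6.86 and 6.28 to 7.27 for mesenchyme and bone markers. In the same order they were 9.91, 8.61 to 8.73 and 8.90 to 9.28 for sustentacular cells, the supporting cells of the epithelium, and 9.33, 10.39 to 10.40 and 9.95 to 10.12 for immature olfactory neurons. On Fezf1-/- replicate 1, Cdkn1c and Cdkn2c were thus high together with markers of mesenchyme and supporting cells. Cdkn2d was low there together with markers of olfactory sensory neurons. Markers of mature olfactory neurons were also lower on the other Fezf1-/- arrays, at 9.01 to 9.10 against 9.71 to 10.19 on Fezf1+/- arrays. Cdkn2d, however, was higher on those Fezf1-/- arrays than on every Fezf1+/- array. The part of these cells in the signals of the inhibitors was not tested. For Cdkn1b the difference was 1.16 over all arrays and 1.29 without Fezf1-/- replicate 1. Markers of neurons and of sustentacular cells also differed between genotypes without it, as given below.

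Over all 6 arrays 0 of 14 mature neuron markers passed by limma, with 11 lower at an unadjusted p of 0.05, and 0 of 13 immature neuron markers, with 1 higher, where 9.48% of all genes passed that p in either direction. Without Fezf1-/- replicate 1, 6 of 14 mature neuron markers fell and 0 rose by limma (median difference -0.91), against 1.67% of all genes that fell, while 3 of 13 immature neuron markers rose and 0 fell (median 0.34), against 0.993% that rose. At an unadjusted p of 0.05, 12 mature markers were then lower and 0 higher, and 9 immature markers were higher and 0 lower. By that p 16.3% of all genes passed in either direction. Of the 9 measured progenitor markers 0 passed with or without that array. At an unadjusted p of 0.05 the count was 0 over all arrays, and without it 2 were higher and 3 lower, where 16.3% of all genes passed in either direction. Neurog1, a proneural factor of these precursors, read 7.09, 7.82 and 8.09 in Fezf1-/- cells against 7.72, 7.46 and 7.82 in Fezf1+/- cells. Sustentacular markers had a median difference of -0.22 over all arrays, with 0 of 9 passing and 1 higher at an unadjusted p of 0.05. Their median was -0.58 without Fezf1-/- replicate 1, and 1 of 9, Ermn, fell by limma. At an unadjusted p of 0.05, 7 of the 9 were then lower and 1 higher, where 16.3% of all genes passed in either direction.

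The median of markers of vomeronasal neurons, the sensory neurons of the neighbouring vomeronasal organ, was higher on every Fezf1-/- array than on any Fezf1+/- array, as Cdkn1b was. Relative to the Fezf1+/- mean their median lay at 0.23, 0.55 and 0.33 in Fezf1-/- replicates 1, 2 and 3, against 0.03, -0.12 and -0.09 in the Fezf1+/- replicates. Their mean log2 level did not separate the groups. It was 8.444, 9.085 and 8.77 in the Fezf1-/- replicates, against 8.516, 8.452 and 8.34 in the Fezf1+/- replicates. Of the 5 measured among 6 listed, 1 rose by limma over all arrays, where 0.0953% of all genes rose, and 2 were higher and 0 lower at an unadjusted p of 0.05. The gene that rose was Gnai2, a G protein subunit of vomeronasal neurons that other cells express too. It read 10.47, 10.36 and 10.36 in the Fezf1-/- replicates, against 9.20, 9.42 and 9.06 in the Fezf1+/- replicates, a difference of 1.17 (SE 0.12, limma adjusted p = 0.0201). Every Fezf1-/- array was higher. The call was lost without Fezf1-/- replicate 2 or 3 or Fezf1+/- replicate 1 or 3, with limma adjusted p = 0.0875 to 0.108, and was kept without Fezf1-/- replicate 1. It was also lost over all arrays with a block for the replicate number (limma adjusted p = 0.0775). Gnao1, the other G protein subunit on the list, read 9.27, 10.63 and 10.56 in Fezf1-/- cells against 10.36, 10.21 and 10.53 in Fezf1+/- cells, so the groups overlapped. Trpc2, the channel that defines these neurons, was not analysed here. Leaving out Fezf1-/- replicate 1 gave the same counts and a median difference of 0.38, against 0.39 over all arrays. The part of these shifts and of the neuronal and sustentacular ones in the Cdkn1b difference was not tested.

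**Figure D2:**
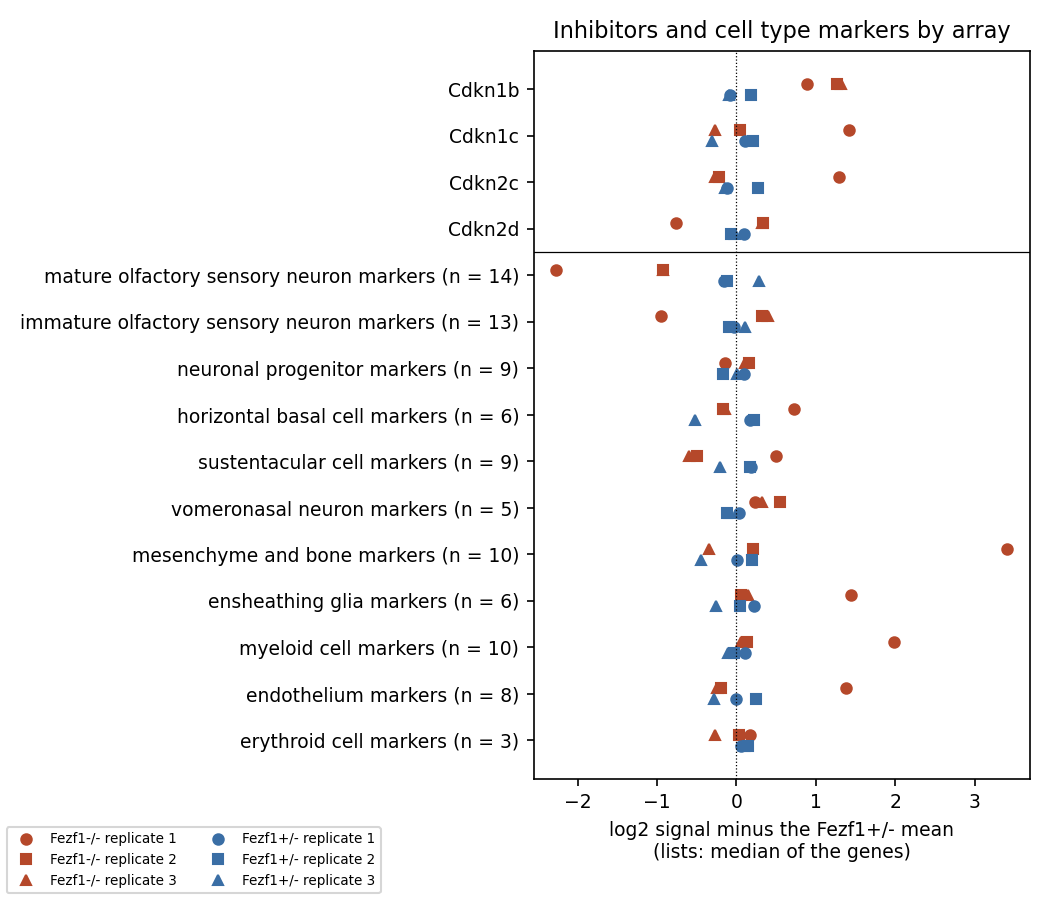
Log2 signal of each array relative to the Fezf1+/- mean for the 4 measured inhibitors (upper block) and the median of each cell type marker list (lower block); points are arrays, with Fezf1-/- drawn above Fezf1+/- in each row. Fezf1-/- replicate 1 lies far to the right for mesenchyme and bone markers and far to the left for mature and immature olfactory sensory neuron markers. Cdkn1b and the median of the vomeronasal neuron markers lie to the right on all 3 Fezf1-/- arrays.

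The partners and targets of the inhibitors were examined in 11 lists. Of the 144 genes measured among 152 listed, 0 passed an adjusted p of 0.05 by limma in either direction, against 0.552% of all genes, and 5 were higher and 2 lower at an unadjusted p of 0.05. That share, 4.86%, compares with 9.48% over all genes. Their median difference was 0.02, as was that of all genes. Without Fezf1-/- replicate 1, 1 rose, the imprinted gene Ndn, and 0 fell, where 0.993% of all genes rose and 1.67% fell. At an unadjusted p of 0.05, 5 were then higher and 18 lower, while over all 19938 genes 1522 were higher and 1731 lower. The shares in either direction were 16.0% and 16.3%, but the listed genes leaned further to lower values. Their median difference was -0.10, against 0.02 for all genes.

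Among the kinases that the inhibitors block and their cyclins, 0 of the 10 measured genes of the G1 phase passed by limma, with 0 at an unadjusted p of 0.05 and a median difference of 0.08. Ccne1, the gene of cyclin E1, which activates Cdk2, differed by 0.43 (SE 0.18, limma adjusted p = 0.539), and Cdc37, a chaperone of Cdk4, by -0.29 (SE 0.22, limma adjusted p = 0.715). Cdk4, the main Ink4 target, read 11.44, 11.30 and 11.28 in Fezf1-/- cells against 11.45, 11.47 and 11.24 in Fezf1+/- cells, so the groups overlapped. Without Fezf1-/- replicate 1 the G1 median was -0.20, with 0 higher and 2 lower when an unadjusted p of 0.05 was applied. That is a share of 20%, against 16.3% of all genes in either direction. On Fezf1-/- replicate 1 alone, 8 of the 10 were at their highest.

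Of the 10 measured cyclins, kinases and regulators of S phase to mitosis, 0 passed by limma, with 0 higher and 1 lower when an unadjusted p of 0.05 was applied. That gene was Cks2, a small subunit of Cdk complexes, at 6.55, 6.76 and 6.35 in the Fezf1-/- replicates, against 6.97, 7.13 and 7.35 in the Fezf1+/- replicates. All its Fezf1-/- values were lower, by -0.60 in the mean (SE 0.15, limma adjusted p = 0.27). Cdc25b, a phosphatase that activates Cdks, differed by 0.29 (SE 0.18, limma adjusted p = 0.663). The list's median was -0.02, and -0.21 without Fezf1-/- replicate 1, where 0 passed. At an unadjusted p of 0.05, 4 of the 10 were then lower and 0 higher, a share of 40% against 16.3% of all genes in either direction.

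Cdk5 works in neurons outside the cell cycle with its activators p35 and p39. Cdk5 differed by -0.23 (SE 0.25, limma adjusted p = 0.78) and Cdk5r1, the p35 gene, by 0.13 (SE 0.19, limma adjusted p = 0.835). None of the 3 genes passed, with 0 at an unadjusted p of 0.05, and all 3 were lowest on Fezf1-/- replicate 1. Without that array 0 passed, Cdk5r1 was higher at an unadjusted p of 0.05, by 0.32 (SE 0.12), and the median was 0.11.

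Downstream of the kinases stand the retinoblastoma proteins, the E2F factors and the DREAM complex, of which 0 of 18 genes passed by limma, with a median of -0.03. The single gene at an unadjusted p of 0.05 was E2f7, a repressor among the E2F factors. It read 7.65, 7.82 and 7.49 in the Fezf1-/- replicates, against 7.35, 7.18 and 7.31 in the Fezf1+/- replicates, and differed by 0.37 (SE 0.12, limma adjusted p = 0.386). Lin52, a DREAM subunit, differed by -0.15 (SE 0.10, limma adjusted p = 0.685). The median was -0.05 without Fezf1-/- replicate 1 and 0 passed, with 1 higher and 2 lower when an unadjusted p of 0.05 was applied. That is a share of 16.7%, near the 16.3% of all genes in either direction.

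Genes of DNA replication and mitosis report on cycling cells, and neither list held a called gene. Of 20 replication genes 0 passed by limma, with 0 at an unadjusted p of 0.05 and a median of 0.04. Gins2, a subunit of the replicative helicase, differed by 0.22 (SE 0.09, limma adjusted p = 0.538) and Gins1 by -0.15 (SE 0.12, limma adjusted p = 0.716). Of the 20, 16 were highest on Fezf1-/- replicate 1, and without it the median was -0.05, with 0 passing. At an unadjusted p of 0.05, 5 were then lower and 0 higher, a share of 25% against 16.3% of all genes in either direction.

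Of 23 mitosis genes 0 passed by limma, with 0 at an unadjusted p of 0.05, with or without Fezf1-/- replicate 1. The median was -0.05, and -0.14 without that array. Mki67, the gene of the proliferation antigen Ki-67, read 7.19, 7.23 and 6.82 in Fezf1-/- cells against 6.86, 7.12 and 7.63 in Fezf1+/- cells. The groups overlapped. Prc1, of the mitotic spindle midzone, differed by -0.22 (SE 0.11, limma adjusted p = 0.602) and Ube2c, a ubiquitin enzyme of the anaphase-promoting complex, by -0.15 (SE 0.10, limma adjusted p = 0.683). All 23 differences lay between -0.22 and 0.16.

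**Figure D3:**
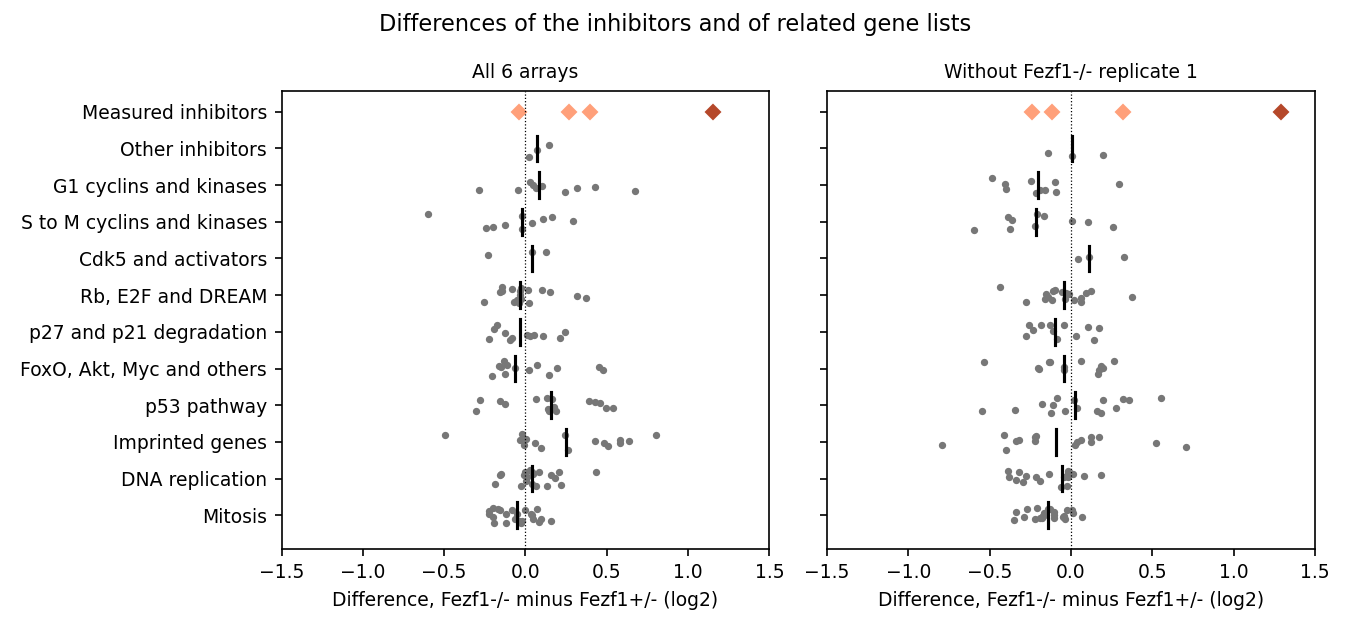
Differences between Fezf1-/- and Fezf1+/- means for the 4 measured inhibitors (diamonds, top row, Cdkn1b darkest) and for each gene of 11 related lists (dots, with the list median as a bar), over all 6 arrays and without Fezf1-/- replicate 1. Cdkn1b lies at 1.16 and 1.29, while no listed gene passes 0.80 in either panel.

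Regulators of the inhibitors were examined next. p27Kip1 is marked for degradation by the Skp2 ubiquitin ligase with its cofactor Cks1b, and p21Cip1 also by a Cul4 ligase. Of 12 genes of these routes 0 passed by limma, with 0 at an unadjusted p of 0.05 and a median of -0.04. Rchy1, a ubiquitin ligase that also acts on p27Kip1, differed by -0.19 (SE 0.10, limma adjusted p = 0.613) and Skp1, the adaptor of Skp2, by -0.17 (SE 0.13, limma adjusted p = 0.711). Skp2 read 7.50, 6.49 and 6.59 in Fezf1-/- cells against 6.69, 6.62 and 6.63 in Fezf1+/- cells, so its high value stood on Fezf1-/- replicate 1. Without that array 0 of the 12 passed, and the 2 that were lower at an unadjusted p of 0.05 were Rchy1, by -0.26 (SE 0.10), and Skp1, by -0.28 (SE 0.10). That is a share of 16.7%, near the 16.3% of all genes in either direction. The median was then -0.10.

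FoxO factors activate the Cdkn1b gene, Akt kinases restrain them, and Myc proteins and Hes1 act as repressors. Of 13 measured genes of this list 0 passed by limma, with 0 at an unadjusted p of 0.05 and a median of -0.06. Foxo1 read 8.77 and 8.41 in Fezf1-/- replicates 1 and 2, against 8.07, 7.93 and 7.83 in the Fezf1+/- replicates, while Fezf1-/- replicate 3 lay within the Fezf1+/- range. The difference over all arrays was 0.45 (SE 0.20, limma adjusted p = 0.557). Mycn differed by -0.21 (SE 0.12, limma adjusted p = 0.662). The median was -0.04 without Fezf1-/- replicate 1 and 0 passed, with 0 higher and 1 lower when an unadjusted p of 0.05 was applied. That is a share of 7.69%, against 16.3% of all genes in either direction.

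The p53 pathway activates Cdkn1a. Of 16 measured genes 0 passed by limma, with 3 higher and 0 lower when an unadjusted p of 0.05 was applied and a median of 0.15, against 0.02 for all genes. The share at that p was 18.75%, against 9.48% of all genes in either direction. Eda2r, a receptor of the TNF receptor family, differed by 0.43 (SE 0.10, limma adjusted p = 0.229) and Aen, a nuclease induced by p53, by 0.46 (SE 0.15, limma adjusted p = 0.398). The Eda2r values, 4.44, 4.31 and 4.17 in Fezf1-/- cells against 3.90, 3.85 and 3.91 in Fezf1+/- cells, lay close to or under the arrays' lower quartiles, which were 4.30 to 4.44. The list's median without Fezf1-/- replicate 1 was 0.03, with 0 passing and 2 higher at an unadjusted p of 0.05. That is a share of 12.5%, against 16.3% of all genes in either direction.

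Cdkn1c lies in an imprinted domain, and 16 of the 19 listed imprinted genes were measured. By limma 0 passed over all arrays, with 1 higher and 1 lower when an unadjusted p of 0.05 was applied and a median of 0.25. Without Fezf1-/- replicate 1 the median was -0.09, and 1 higher and 2 lower had an unadjusted p under 0.05. Those shares were 12.5% and 18.75%, against 9.48% and 16.3% of all genes in either direction. Kcnq1, a potassium channel gene of the same domain, read 6.05, 6.27 and 6.32 in the Fezf1-/- replicates, against 6.61, 6.69 and 6.84 in the Fezf1+/- replicates. All its Fezf1-/- values were lower, with a difference of -0.49 (SE 0.12, limma adjusted p = 0.228).

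Ndn, the gene of necdin, a growth suppressor of postmitotic neurons, was the gene of these lists that passed in the 5 arrays. It read 10.18, 10.69 and 10.43 in the Fezf1-/- replicates, against 9.87, 9.82 and 9.87 in the Fezf1+/- replicates. Every Fezf1-/- array was higher. The difference was 0.58 (SE 0.14, limma adjusted p = 0.254), and without Fezf1-/- replicate 1 it was 0.70 (SE 0.11, limma adjusted p = 0.0248).

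The 3 inhibitors outside the chosen list did not pass. Cdkn2b, the gene of p15Ink4b, differed by 0.14 (SE 0.13, limma adjusted p = 0.747) and Cdkn2a, which encodes p16Ink4a and p19Arf, by 0.07 (SE 0.10, limma adjusted p = 0.832). With Cdkn3 the differences ran from 0.02 to 0.14, and by limma 0 passed, with 0 at an unadjusted p of 0.05. Cdkn2a stood between 4.95 and 5.17 in Fezf1-/- cells and between 4.89 and 5.06 in Fezf1+/- cells, below the median of every array. In the 5 arrays without Fezf1-/- replicate 1 the 3 differences ran from -0.14 to 0.20, and again 0 passed, with 0 at an unadjusted p of 0.05.

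The genes most like each inhibitor over the 6 arrays were sought among the 3941 genes with a range of at least 1 log2 unit. For Cdkn1b they were Pgm2l1, which makes glucose 1,6-bisphosphate (Pearson r = 0.991), Fam102b (0.988), Vav3 (0.987), Pde1a, a calmodulin-dependent phosphodiesterase (0.986), and Slc12a4, a potassium-chloride cotransporter (0.983). All 5 were higher on every Fezf1-/- array than on any Fezf1+/- array, which likeness to Cdkn1b selects for, so no test is given. Pde1a read 7.35, 8.44 and 8.53 in Fezf1-/- cells against 5.72, 5.93 and 5.92 in Fezf1+/- cells, a difference of 2.25 (SE 0.32). Vav3 differed by 2.00 (SE 0.36), Fam102b by 1.44 (SE 0.11), Slc12a4 by 1.08 (SE 0.11) and Pgm2l1 by 0.73 (SE 0.13). In the 5 arrays without Fezf1-/- replicate 1 their correlations with Cdkn1b were 0.989 to 0.998.

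For Cdkn1c the most similar gene was Ccnd2, the gene of cyclin D2 (r = 0.998), before Map3k1, a kinase of stress signalling (0.997), and Birc3, an inhibitor of apoptosis (0.996). Ccnd2 read 11.29, 8.40 and 7.71 in the Fezf1-/- replicates, against 8.73, 8.86 and 7.80 in the Fezf1+/- replicates. A cyclin and an inhibitor were thus high on the same Fezf1-/- array, and both were low on Fezf1-/- replicate 3 and Fezf1+/- replicate 3. Without Fezf1-/- replicate 1 the correlation of Cdkn1c with Ccnd2 was 0.985.

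For Cdkn2c the most similar genes were Mfap4, a protein of extracellular microfibrils (r = 0.999), Tgfb3, a secreted growth factor (0.999), and Cbx5, the heterochromatin protein HP1 alpha (0.999). Mfap4 read 8.33, 6.18 and 6.04 in Fezf1-/- cells against 6.25, 6.80 and 6.29 in Fezf1+/- cells, highest on Fezf1-/- replicate 1 and next on Fezf1+/- replicate 2, as Cdkn2c was. For Cdkn2d they were the odorant receptor gene Olfr223 (r = 0.995), the phosphatase gene Dusp8 (0.993) and the kinase gene Sbk1 (0.993). Sbk1 read 7.94, 9.06 and 8.97 in Fezf1-/- cells against 8.72, 8.59 and 8.73 in Fezf1+/- cells, lowest on Fezf1-/- replicate 1. Correlations over so few arrays, 1 of which stands apart, describe these arrays and carry no p.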

How the data were processed

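The authors deposited 1 log2 signal for each probe set of each Affymetrix Mouse Gene 1.0 ST array. GCRMA and Affymetrix Expression Console are the tools that the submitters' processing notes name, with no versions; filters and a genome build are not given in the sources used here. Base 2 was inferred from the range of 2.14 to 14.5. Each labelling started from 100 ng of total RNA, per the labels' protocols. Of 35557 probe sets, 21789 had a single symbol in the platform annotation of 2016, and 21698 were renamed by Entrez number to RefSeq symbols (GRCm38.p6). Probe sets with several symbols named no gene. Taking the brightest probe set per gene left 19938 genes, and no filter on low values was set.

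Fezf1-/- and Fezf1+/- arrays were compared in limma 3.58.1 (R 4.3.3), using lmFit and a two-sided moderated test from eBayes. P-values were adjusted by the Benjamini-Hochberg method across all 19938 genes, and 0.05 was the threshold. The procedure was tested on simulated independent normal values whose spreads were taken without Fezf1-/- replicate 1. That test therefore does not cover the spread that this array adds. With 3 values against 3, an exact permutation test cannot go below 0.1, so none was run. The p-values reflect only how far these samples vary, which may be technical, and the number of arrays limits precision.

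The members, the gene lists and the rule for named genes were chosen with earlier results of these data known. Named were all members, Fezf1, from each related list up to 4 called genes or the 2 with the smallest p, the genes most like each member, and markers standing first in their lists. Mki67, Cdk4, Skp2, Cdkn3, Gnai2 and Ermn were named after their values were seen. The replicate numbers were not taken as pairs, because no label says that a number marks a shared litter, day or batch. Correlations of deviations from the group means between same-numbered arrays were 0.225, -0.332 and 0.541. With so few arrays these values cannot decide whether the numbers mark pairs. Alternatives were quantile normalisation, centring on array medians, testing genes with an above-median mean alone, averaging a gene's probe sets, trend and robust settings of eBayes, a block for the replicate number, and leaving out single arrays.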

Additional observations from a re-analysis of the deposited data

How the results depend on the processing

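Over all 6 arrays 110 genes were called by limma, 19 higher and 91 lower in Fezf1-/- cells. The count was 24 (11 higher, 13 lower) when only genes above the median mean were tested, which tests fewer genes by construction, and it ran from 40 to 531 with 1 array left out, with 531 without Fezf1-/- replicate 1. With the replicate block it was 88 (5 higher, 83 lower). Of the 144 partner, target and regulator genes, 0 were called in all settings except without Fezf1-/- replicate 1, where the count was 1, so it ran from 0 to 1 with 1 array left out. The difference of Cdkn1b was 1.12 to 1.21 under the settings that keep all arrays and 1.08 to 1.29 with 1 array left out. With 1 array left out, the difference ran from -0.11 to 0.74 for Cdkn1c, from -0.24 to 0.54 for Cdkn2c and from -0.23 to 0.32 for Cdkn2d. The sign turned without Fezf1-/- replicate 1 in all 3, and for Cdkn2d also in 1 other case. Signal over background was not examined per probe, which limits what low values such as those of Cdkn2a and Eda2r show.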
